A study of Neurospora crassa with 24 samples.

Results

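The comparison set 3 libraries of *Neurospora crassa* labelled white-collar mutant against 3 libraries of the wild type, all from cultures kept in darkness. It asks what WC-1 does to the transcriptome when no light is given, for example through the circadian clock. The 6 libraries were chosen by their labels alone, from 24 libraries in 8 conditions (wild type, white-collar mutant, velvet mutant and double mutant, each in dark and in light, 3 libraries per condition). Conidia had been spread on nitrogen-poor synthetic crossing medium, incubated at 22 °C for 7 days so that protoperithecia, the unfertilized female structures, could form, and poly(A) RNA was taken 1 day before fertilization. The study describes its strains as deletions of *wc-1*, of *ve-1* or of both. No strain of the dark comparison received light, and no library of it carried a velvet mutation. The study's methods speak of independent biological replicates for its RNA work. They also say, as the labels do, that tissue of biological replicates was pooled before RNA extraction. The labels do not tie the 3 libraries of a strain to separate cultures. The p-values below measure the spread between these libraries, which may in part be technical.

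WC-1 is a blue-light photoreceptor and a zinc-finger transcription factor. With its partner WC-2 it forms the white collar complex, which activates light-induced genes in light and the clock gene *frq* in darkness. The FRQ protein, together with the RNA helicase FRH and casein kinases, then inhibits the complex, and this feedback loop is the core of the fungal circadian clock. VVD is a small photoreceptor, itself induced by the complex, that damps the light response, and clock-controlled genes carry the rhythm to metabolism and development.

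The 6 libraries held between 34706762 and 42697941 read counts, and 9483 to 9585 genes had at least 1 count. Values are given as CPM, that is, counts scaled to the library total with TMM factors over all libraries. A gene was called a differentially expressed gene (DEG) when its Benjamini-Hochberg adjusted p was under 0.05 and its log2 fold change was beyond 1 in either direction. Wild-type library 3 stood apart, with Spearman correlations of 0.913 to 0.93 across genes with the other 5 libraries, which correlated at 0.97 to 0.987 with each other. The 7 markers of protoperithecial tissue were detected in every library, and their summed level was 2001, 7530.5 and 464 CPM in wild-type libraries 1 to 3 against 2782 to 6344 CPM in the libraries labelled white-collar mutant. The 5 markers of asexual spores were detected as well, at a sum of 1007 to 3401 CPM against 1378 to 4393 CPM. In such bulk samples, fewer cells of a type and less RNA per cell cannot be told apart.

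The targeted gene did not follow its label. *wc-1* (NCU02356, chromosome VII, 2767393-2773846, NC12 assembly) had 27.8, 20.5 and 17.3 CPM in the wild type and 69.2, 55.7 and 54.8 CPM in the libraries labelled white-collar mutant, where 2838 to 3320 reads per library were assigned to it. All 3 labelled libraries were above all 3 of the wild type, by 2.74-fold (log2 1.45 ± 0.21 SE, adjusted p = 0.256 by edgeR on the 6 libraries and 3.69e-06 by DESeq2). A sum over a gene does not show where in the gene its reads lay, so a transcript left by a partial deletion and an intact one cannot be told apart here. The strain is therefore named by its label throughout. Below, without VE-1 likewise follows the labels of the velvet and double mutants. Reads were assigned to *ve-1* in their dark libraries too, enough to pass the filter on low counts. The log2 fold change of *ve-1* there, double against velvet mutant, was 1.06 ± 0.53 SE (adjusted p = 0.812 by edgeR). *wc-2*, the partner gene, had 99.8, 99.6 and 77.7 CPM in the wild type and 170.3, 154 and 162 CPM in the labelled libraries (log2 0.81 ± 0.15 SE, adjusted p = 0.322 by edgeR and 9.19e-04 by DESeq2). Its libraries did not overlap either, but the difference was below the fold threshold with every tool.

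*frq* (NCU02265, chromosome VII, 3131640-3136464), the negative arm of the clock, was the gene of the core set that differed most. Its level was 102, 57.7 and 57.6 CPM in the dark wild type and 10.4, 11.3 and 6.28 CPM in the libraries labelled white-collar mutant. The lowest wild-type library was thus far above the highest labelled one, and the fold change was 7.81 (log2 -2.96 ± 0.34 SE). edgeR fitted on the 6 libraries gave an adjusted p of 0.151, edgeR on all 24 libraries 0.0221, limma-voom 0.0341 and DESeq2 on the 6 libraries 8.11e-15. With the replicate number as a block, edgeR gave 0.266 and DESeq2 1.92e-22. Without wild-type library 3 the log2 fold change was -3.12, with an adjusted p of 0.0489 by edgeR.

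*vvd* (NCU03967) is one of the most strongly light-induced genes of the fungus, and in darkness it was low. It had 16.8, 15.9 and 8.97 CPM in the wild type and 6.23, 8.09 and 2.91 CPM in the labelled libraries, with no overlap between the groups. The log2 fold change of -1.28 ± 0.42 SE did not pass the test (adjusted p = 0.569 by edgeR and 0.107 by DESeq2). DESeq2 called *vvd* with the replicate number as a block (log2 -1.34, adjusted p = 2.20e-04) and without wild-type library 3 (log2 -1.51, adjusted p = 0.00886), and in none of the fits that left out another library.

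The remaining clock genes showed no call. *frh*, which encodes the FRQ-interacting helicase, had 43 to 46.6 CPM in the wild type and 39.8 to 51.6 CPM in the labelled libraries. *ck-1a*, the casein kinase I gene, had 748 to 779.5 CPM against 724 to 803 CPM, and *fwd-1*, which encodes the F-box protein that marks FRQ for degradation, had 121 to 138 CPM against 131 to 143 CPM. The log2 fold changes of these genes were 0.02 ± 0.14, 0.01 ± 0.13 and 0.06 ± 0.12 (SE). The casein kinase II genes *cka* (181 to 191 CPM against 172 to 187 CPM) and *ckb-1* (115 to 145 CPM against 97.5 to 116 CPM) overlapped as well, as did the checkpoint kinase gene *prd-4* and the chromatin remodeller gene *csw-1*. *csp-1*, which encodes a clock-output repressor, had 151, 154 and 49 CPM against 84.3, 104 and 75.6 CPM, so that 1 wild-type library lay below the whole labelled group. *rco-1*, a corepressor gene, was a little higher without overlap (243 to 263 CPM against 267 to 310.3 CPM, log2 0.18 ± 0.13 SE). Of the 13 core genes, 0 were DEGs by edgeR and 2 by DESeq2 (*wc-1* higher, *frq* lower), where DESeq2 called 0.926% of all genes it tested. In 5 of the 13 the libraries did not overlap (3 higher and 2 lower), against 15.7% of all genes tested (8.33% higher and 7.42% lower).

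**Figure D1:**
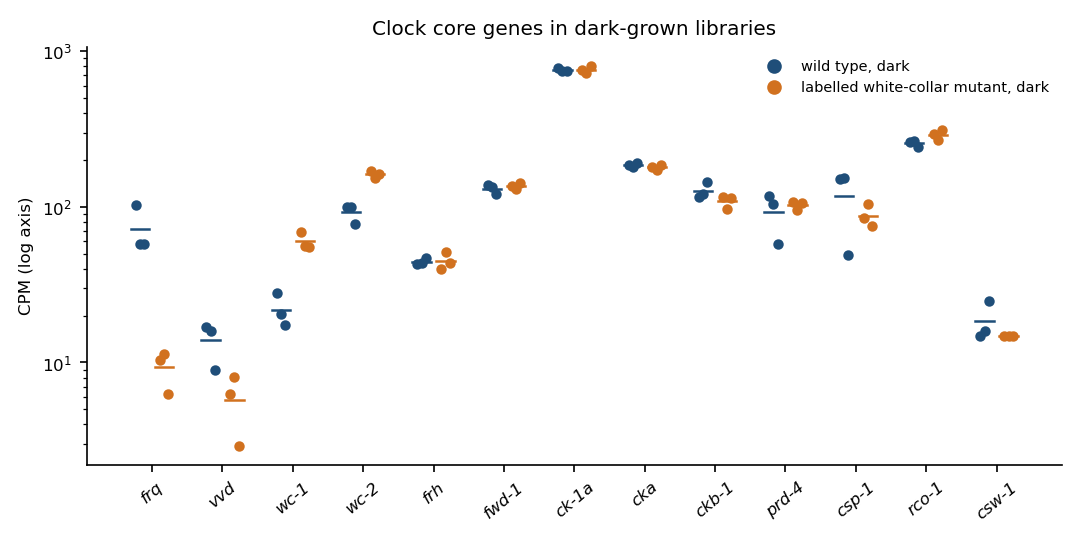
Normalised read count (CPM, log axis) of the 13 clock core genes in each of the 6 dark libraries; points are libraries and short lines are means of 3. *frq* lies at 57.6 to 102 CPM in the wild type and 6.28 to 11.3 CPM in the libraries labelled white-collar mutant, *wc-1* and *wc-2* are higher in the latter, and *frh*, *ck-1a* and *fwd-1* overlap.

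Across the genome the dark comparison gave few calls with the main test. Of 9103 genes tested by edgeR on the 6 libraries, 2 were DEGs (0.022%), 1 lower and 1 higher, and 707 had an unadjusted p under 0.05 (7.77%, 297 higher and 410 lower). The number of calls depended on the tool. limma-voom called 14 genes (0.154%), and DESeq2, the tool of the study, called 85 (0.926%, with 27 or 0.294% higher and 58 or 0.632% lower), among them both edgeR calls and all 14 of limma-voom. The deviations of same-numbered libraries from their strain means correlated at 0.186 to 0.348, but 1 pair of different numbers also reached 0.199. The fit with the replicate number as a block therefore bears on these counts. edgeR then called 0 genes, with 684 at an unadjusted p under 0.05, and DESeq2 called 105, of which 75 were among its 85. Wild-type library 3 weighed on the edgeR count. Without it edgeR called 8 genes (2 higher and 6 lower, *frq* among the latter) and DESeq2 called 98, of which 55 were among the 85, whereas leaving out any other library left 0 edgeR calls, with 379 to 1204 genes at an unadjusted p under 0.05.

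The gene that fell by edgeR was *fld* (NCU09739, chromosome IV, 1969753-1972318), also named *ada-7*. It had 86.8, 91.1 and 64.9 CPM in the dark wild type and 22.5, 21.8 and 21.9 CPM in the libraries labelled white-collar mutant, a 3.67-fold difference (log2 -1.87 ± 0.16 SE, adjusted p = 0.0485 by edgeR and 4.50e-18 by DESeq2). The labelled libraries were nearly identical to each other and far below every wild-type library. The gene that rose was *dpp-9* (NCU01000, chromosome V, 2646428-2648870), annotated as a dipeptidase, with 27.5, 29.2 and 25.3 CPM against 67.3, 71.1 and 78.9 CPM (log2 1.41 ± 0.12 SE, adjusted p = 0.0485 by edgeR and 1.29e-15 by DESeq2). It overlaps the neighbouring gene NCU01001 in the annotation. With the replicate number as a block, edgeR gave *fld* an adjusted p of 0.266 and *dpp-9* 0.285. With each library left out in turn, edgeR's adjusted p ranged from 0.00258 to 0.663 for *fld* and from 0.0485 to 0.663 for *dpp-9*. The size of the differences hardly moved, since DESeq2 without each library gave log2 fold changes of -2.01 to -1.79 and 1.34 to 1.46, with highest adjusted p values of 7.40e-11 and 2.03e-09.

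The same genes were measured in libraries that the dark comparison did not use. *frq* had 213 ± 58.5 CPM (SD, n = 3) in the lit wild type and 7.18 ± 1.13 CPM in the lit libraries labelled white-collar mutant (log2 -4.97, adjusted p = 0.00967 by edgeR). In darkness without VE-1, *frq* had 97.6 ± 33 CPM in the velvet mutant and 25.1 ± 12.6 CPM in the double mutant (log2 -1.95, adjusted p = 0.812 by edgeR and 0.018 by DESeq2). Without library 2 of the dark double mutant, which stood apart, edgeR gave a log2 fold change of -1.88 with an adjusted p of 0.0358, in a fit that called 890 of 9132 genes against 2 of 9000 with all libraries. Library by library, *frq* was lower in every white-collar or double mutant library than in every wild-type or velvet mutant library of the same light condition. The lit velvet and double mutants were not compared by a test. The difference of the effect between light and dark was -1.93 ± 0.47 SE on the log2 scale, which did not pass the test by edgeR (adjusted p = 0.0616) and passed it by DESeq2 (-1.96, adjusted p = 0.00613).

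*fld* was also lower in light, where it had 343 ± 139.9 CPM in the lit wild type and 45.4 ± 27 CPM in the lit labelled libraries (adjusted p = 0.0535 by edgeR and 1.08e-04 by DESeq2), and 145 ± 59.1 CPM against 46.6 ± 23 CPM in the dark velvet and double mutants (log2 -1.61, adjusted p = 0.812 by edgeR). Within each of these pairs the groups did not overlap, although library 2 of the dark double mutant, at 72.6 CPM, was above the lowest dark wild-type library. *dpp-9* had 12.2 ± 9.67 CPM against 84.6 ± 26.8 CPM in light (log2 2.72, adjusted p = 0.0755 by edgeR and 7.98e-04 by DESeq2) and 12.2 ± 5.29 CPM against 25 ± 10.7 CPM in the dark without VE-1 (log2 1.06, adjusted p = 0.812). In the latter pair the groups overlapped, since the velvet mutant reached 18.2 CPM and the lowest double mutant library had 14.5 CPM. *wc-1* was not higher in the lit labelled libraries, with 12.7, 32.1 and 30 CPM against 42.1, 7.12 and 41.2 CPM in the lit wild type. In darkness without VE-1 it had 129, 37 and 36.1 CPM in the double mutant against 23.2, 23.7 and 11 CPM in the velvet mutant (log2 1.80, adjusted p = 0.812 by edgeR).

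**Figure D2:**
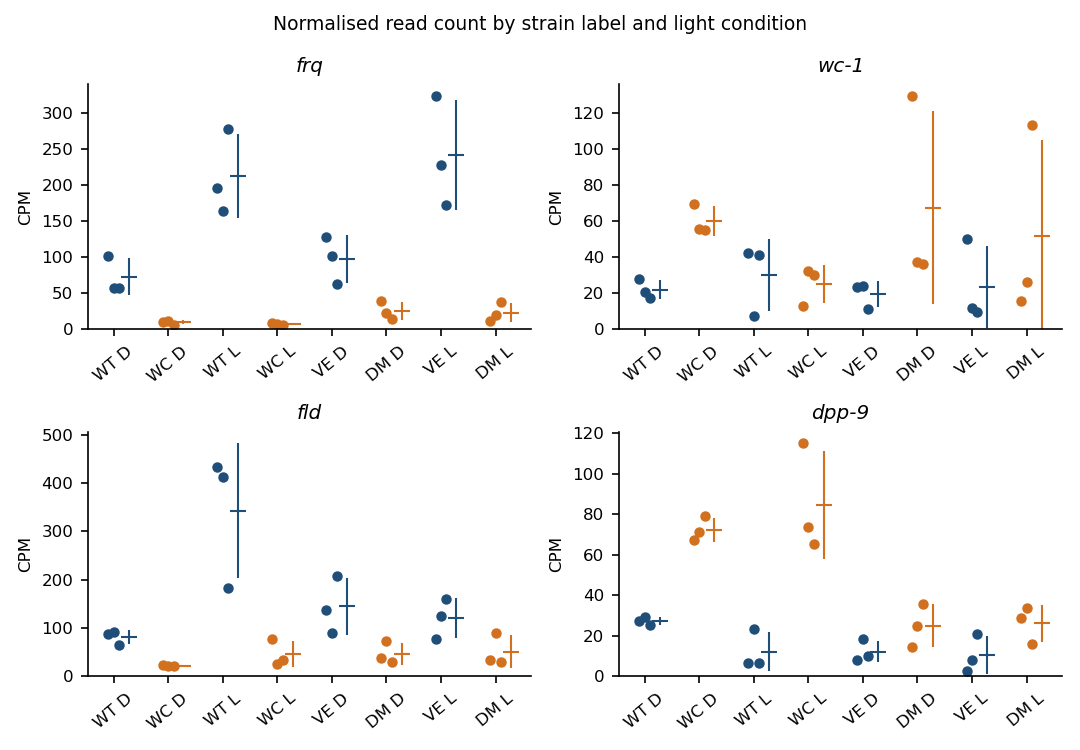
CPM of *frq*, *wc-1*, *fld* and *dpp-9* in each library of the 8 conditions (WT wild type, WC white-collar mutant, VE velvet mutant, DM double mutant, D dark, L light); points are libraries, bars are mean ± SD of 3, and strains labelled as carrying the white-collar mutation are orange. *frq* is lower in orange than in blue in each light condition and background, *fld* is so except for 1 lit double mutant library at 89.6 CPM, and *wc-1* overlaps in light.

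The 85 DESeq2 DEGs were looked at in more depth, although this set was chosen after its values were seen and edgeR on the same libraries called 2 of them. In 80 of the 85 the 3 libraries of each strain did not overlap, against 15.7% of all genes tested. The 85 were chosen by their difference in these same libraries, so this count gives no separate support. Wild-type library 3 lay more than 2-fold outside the other wild-type libraries in 21 of them (16 lower and 5 higher). DESeq2 kept 25 genes, 10 higher and 15 lower, in all 6 fits that left out 1 library. The 10 higher genes were *dpp-9*, *wc-1*, *pho-5*, *mpr-8*, *pab-4*, NCU05156, NCU04396, NCU16490, NCU05321 and NCU05834. Among the 15 lower genes were *frq*, *fld*, *qa-5*, *gpr-33*, *pro-1* (proline synthesis), *gh13-3* (glycoside hydrolase family 13) and the O-methyltransferase gene NCU02328.

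Among the higher genes, NCU05156 had the largest fold change of those reaching 10 CPM in 1 strain, with 19.1, 30.3 and 10.2 CPM in the wild type and 73.5, 77.4 and 78.4 CPM in the labelled libraries (3.85-fold, adjusted p = 6.68e-05 by DESeq2 and 0.327 by edgeR). NCU05236 had 261, 632 and 108 CPM against 852, 1201 and 1766 CPM (3.83-fold, adjusted p = 0.0324 by DESeq2 and 0.561 by edgeR). The wild-type libraries of NCU05236 spread widely, and with the replicate block DESeq2 no longer called it (adjusted p = 0.312). *pho-5*, which encodes a high-affinity phosphate permease, had 14.7, 14.2 and 9.39 CPM against 27.3, 33.3 and 42.9 CPM (2.7-fold, adjusted p = 8.17e-05 by DESeq2 and 0.315 by edgeR). *mpr-8* had 193, 179 and 95.5 CPM against 431, 409 and 424 CPM (2.7-fold, adjusted p = 2.24e-04 by DESeq2 and 0.327 by edgeR). The other higher genes of this kind, *fea-2*, NCU04396, *pab-4*, *phy-1*, NCU09365 and NCU08969, had DESeq2 fold changes of 2.49 to 3.62.

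Among the lower genes, NCU05126 had the largest fold change (67-fold by DESeq2), but it rested on unequal wild-type libraries with 129.9, 18.5 and 1276 CPM against 12.8, 4.01 and 4.59 CPM. Without wild-type library 3 the edgeR log2 fold change of NCU05126 was -3.40 in place of -6.05, with an adjusted p of 0.252. *qa-5* had 35.7, 31 and 49.3 CPM against 9.34, 5.5 and 3.5 CPM (6.34-fold, adjusted p = 5.77e-09 by DESeq2, 0.0457 by limma-voom and 0.256 by edgeR). NCU02328, annotated as an O-methyltransferase, had 60.3, 40.5 and 89 CPM against 21.1, 12.1 and 13.1 CPM (4.11-fold, adjusted p = 1.12e-05 by DESeq2 and 0.315 by edgeR). NCU03969, which overlaps the annotated gene NCU17113, had 12.1, 8.19 and 21.1 CPM against 2.29, 1.65 and 2.21 CPM (6.75-fold, adjusted p = 4.25e-09 by DESeq2 and 0.256 by edgeR). In *fdo-1*, annotated as a flavin dinucleotide oxygenase, NCU04342, NCU05230, NCU09650, NCU16805 and NCU17138, as in NCU05126, wild-type library 3 was the highest of the 6 libraries. NCU10572, which overlaps NCU09642, had 92.4, 25.1 and 112 CPM against 15.9, 12 and 11.2 CPM.

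**Figure D3:**
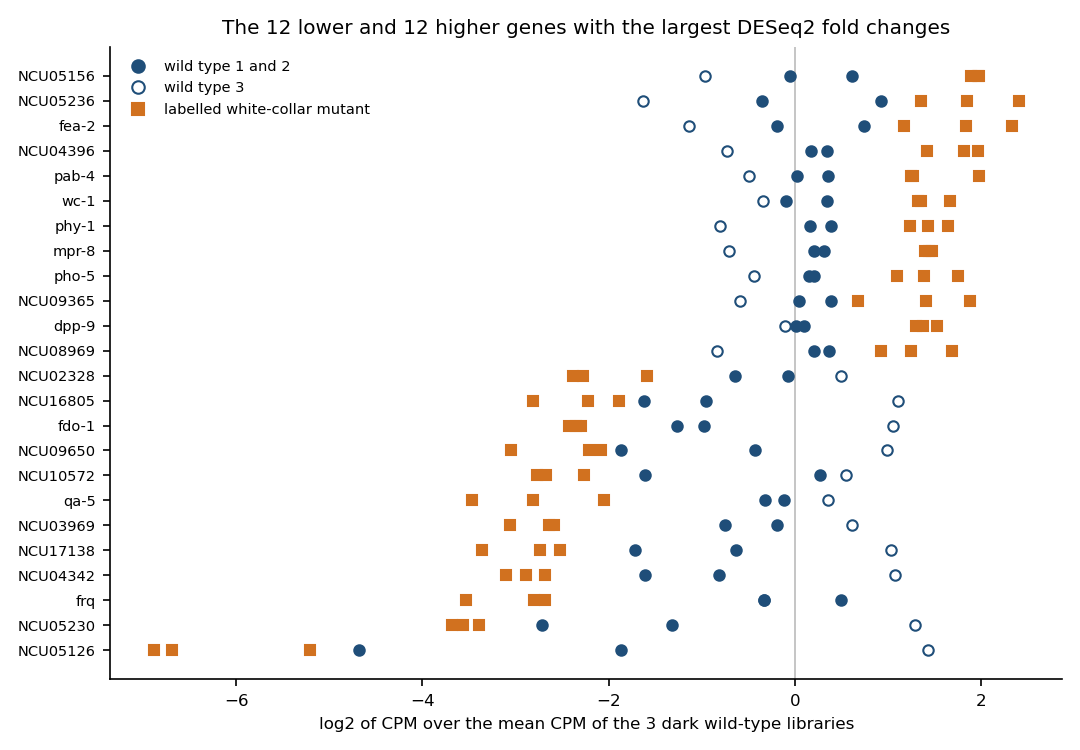
The 12 lower and 12 higher DESeq2 DEGs with the largest fold changes among those with non-overlapping libraries and at least 10 CPM in 1 strain; the axis is the log2 of each library's CPM over the mean of the 3 wild-type libraries. Wild-type library 3 (open circles) is the lowest of the wild type in each of the 12 higher genes and the highest in 11 of the 12 lower genes, *frq* being the exception.

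By position, chromosome IV held 25 of the 85, which is 1.83% when set against its genes tested by edgeR, and the other chromosomes had 0.486% to 1.24%. NCU09640 and NCU08257 were called by DESeq2 but not tested by edgeR. Within 100000 bp of the first base or of the last annotated gene of a chromosome lay 364 genes, of which 13 (3.57%, against 0.926% of all genes tested) were called, all 13 of them lower and 8 on chromosome IV. Each of these 8 lost the DESeq2 call in at least 1 fit that left out a library, with highest adjusted p values of 0.0509 to 0.299. The left end of chromosome IV alone held 5 of them (NCU10285, NCU09639, NCU09640, NCU10572 and NCU09650). In 6 cases 2 called genes were direct neighbours, and both members of each of these pairs moved the same way. NCU04396 and NCU04397 were higher and next to each other, and NCU02327 and NCU02328 were lower and next to each other. These counts are descriptions without a test.

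The 85 genes were then read in the other comparisons of the white-collar mutation, which share no library with the dark one. Their libraries were less alike. The 10 most abundant genes held 18.7% to 27.1% of counts in the lit wild type and 26.7%, 7.31% and 6.91% in the lit labelled libraries. They held 16.3% to 21.4% in the dark velvet mutant and 7.5%, 23.9% and 7.38% in the dark double mutant. In the 6 libraries of the dark comparison they held 6.41% to 9.31%. Whether this bears on the shares below was not tested. Of the 27 higher genes, 26 could be tested in light, and 23 of them (88.5%) were higher there, against 50.2% of all genes tested, with a median log2 fold change of 1.44. In the dark comparison of the double with the velvet mutant, 23 of 26 (88.5%) were higher, against 56.7% of all genes tested, with a median of 0.85. Without library 2 of the dark double mutant the share was 76.9%, against 54.7% of all genes tested. The 58 lower genes behaved less evenly. In the double mutant 38 of 53 (71.7%) were lower than in the velvet mutant, against 43.3% of all genes, whereas in light 27 of 55 (49.1%) were lower, against 49.8% of all genes. In light 4 of the lower genes were DESeq2 DEGs in the same direction and 7 in the opposite direction, where DESeq2 called 8.03% of all genes. By edgeR these were 2 and 0. Without lit labelled library 1 they were 8 and 3, in a fit that called 1419 of 9101 genes. In that fit 30 of the 55 (54.5%) were lower, against 50.5% of all genes tested. Their median log2 fold change was -0.44 in place of 0.03.

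With the main test, 0 of the 2 dark DEGs were DEGs of the light comparison and 0 were DEGs of the double mutant against the velvet mutant, in which edgeR called 138 (1.55%) and 2 (0.0222%) genes. Both counts rested on single libraries. The light count was 0 without each lit wild-type library and 1419 without lit labelled library 1, and the count of the double against the velvet mutant was 890 without library 2 of the dark double mutant and 1 to 3 without each other library. By DESeq2, 10 of the 85 were DEGs in light in the same direction and 7 in the opposite direction, where DESeq2 called 8.03% of all genes. In the double mutant against the velvet mutant 4 of the 85 were DEGs in the same direction, where DESeq2 called 0.238% of all genes. *frq*, NCU02486 and NCU05236 were called in all 3 comparisons. NCU05236 had 27.6 ± 6.97 CPM in the lit wild type and 530.3 ± 253 CPM in the lit labelled libraries, and 45.3 ± 9.18 CPM in the dark velvet mutant and 371 ± 299.7 CPM in the dark double mutant. NCU02486 had 34.9, 60.3 and 34.5 CPM in the dark wild type and 90.3, 82.4 and 119.6 CPM in the dark labelled libraries, 3.19 ± 1.84 CPM against 70.6 ± 34.8 CPM in light, and 5.57 ± 2.2 CPM against 32.5 ± 23.6 CPM in the dark without VE-1. The groups of NCU05236 and NCU02486 did not overlap in any of these comparisons.

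**Figure D4:**
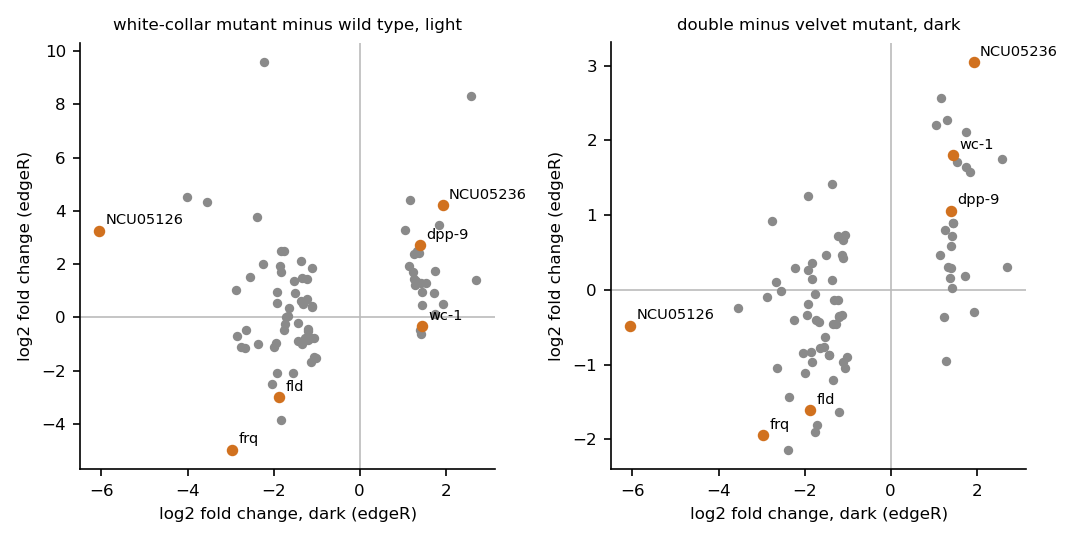
edgeR log2 fold changes of the DESeq2 DEGs of the dark comparison, on the x axis in the dark and on the y axis in light (left) or between the double and the velvet mutant in the dark (right); each point is a gene, and the orange points are named examples. Of the genes higher in the dark, 23 of 26 lie above 0 in each panel, whereas the lower genes lie on both sides of 0 in light.

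The difference of the white-collar effect between light and dark was tested directly. edgeR called 192 of 9228 genes (2.08%), 132 with a more positive and 60 with a more negative effect in light. The count rested on single libraries, with 5 genes without dark labelled library 2 and 1220 without lit labelled library 1. Of the 13 clock core genes 1 was called, *vvd*, which had 781 ± 275 CPM in the lit wild type and 4.49 ± 2.29 CPM in the lit labelled libraries (difference of effects -6.18 ± 0.72 SE, adjusted p = 0.00516). Of the 85 dark DESeq2 DEGs 6 were called, and 0 of the 2 edgeR DEGs. The dark difference by which the 85 were chosen is part of this test, so their count cannot be set against the share of all genes. With or without VE-1, the dark effect differed in 2 of 9284 genes by edgeR (0.0215%), 0 of them among the 85 or the clock core. Both genes had almost no reads in the dark velvet mutant libraries, as given below.

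Clock-controlled genes carry the output of the clock. Of 12 measured here 0 were called by either tool, where DESeq2 called 0.926% of all genes. Of the same 12, 0 had libraries without overlap, against 15.7% of all genes tested. All libraries came from 1 stage, 1 day before fertilization, so a rhythm or its phase cannot be read from them. *ccg-1*, a glucose-repressible gene, had 12725, 13083 and 23060.2 CPM in the wild type and 14303, 12145 and 12908 CPM in the labelled libraries. *eas*, which encodes the hydrophobin of the conidial surface, had 1549.6, 1073 and 144 CPM against 691, 2517 and 144 CPM, and its spread within a strain exceeded any difference between strains. *gpd-1*, the glyceraldehyde-3-phosphate dehydrogenase gene, had 1473 to 2444 CPM against 1349.8 to 1695 CPM. The copper metallothionein gene *cmt* had 461, 507 and 1501 CPM against 465, 398 and 405 CPM, with only wild-type library 3 set apart. *ccg-9*, a trehalose synthase gene, had 239.7 to 572 CPM against 397 to 422 CPM. *ccg-6* had 2493 to 5832 CPM against 2011 to 3231 CPM, *ccg-16* 2074 to 6175 CPM against 2377 to 3170.3 CPM and *ccg-15* 1696 to 2342 CPM against 1583 to 1746 CPM. *ccg-8*, a transcription factor gene, had 46.8 to 61.9 CPM against 52.1 to 58.1 CPM, *ccg-13* 20.7 to 203 CPM against 20.4 to 270.3 CPM and *ccg-14* 34.9 to 55 CPM against 17.3 to 42.1 CPM. The list had a median log2 fold change of -0.31, or -0.18 without wild-type library 3, against -0.01 for all genes tested.

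Photoreceptor genes other than those of the complex gave 1 DESeq2 call of 5, where DESeq2 called 0.926% of all genes. *phy-1*, a phytochrome gene, had 22.6, 26.5 and 11.6 CPM in the wild type and 47.7, 54.5 and 63.4 CPM in the labelled libraries (2.73-fold, adjusted p = 0.00206 by DESeq2 and 0.383 by edgeR). The second phytochrome gene, *phy-2*, had 11.3 to 15.4 CPM against 12.4 to 15.5 CPM. The cryptochrome gene *cry* had 30, 34.8 and 4 CPM against 20.7, 37.4 and 6.02 CPM, so that library 3 was low in both strains. The opsin gene *nop-1* had 149 to 312 CPM against 239 to 425 CPM, and the photolyase gene *phr* 41.6 to 57.1 CPM against 47 to 55.8 CPM.

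The carotenoid genes, which light induces through the white collar complex, overlapped between the strains in darkness in 6 of 6 cases. Of all genes tested, 15.7% did not overlap. *al-1* (phytoene desaturase) had 14.7 to 23.6 CPM in the wild type and 12.1 to 28.2 CPM in the labelled libraries, *al-2* (phytoene synthase) 54.2 to 57.7 CPM against 36.3 to 55.8 CPM, and *al-3* (geranylgeranyl diphosphate synthase) 65.1 to 94.8 CPM against 80.9 to 109 CPM. *ylo-1* had 148 to 217 CPM against 175 to 186 CPM, *cao-1* 18.2 to 36.1 CPM against 20.2 to 27.1 CPM and *cao-2* 60.2 to 90.4 CPM against 64.6 to 84.3 CPM. None was called by either tool in the dark, where DESeq2 called 0.926% of all genes, and the log2 fold changes ran from -0.31 to 0.25.

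The mating pheromone and receptor genes were also without a call, where DESeq2 called 0.926% of all genes. *ccg-4*, the pheromone precursor of mating type A, had 265, 428 and 48.3 CPM against 233, 425 and 72 CPM, and *mfa-1*, the precursor of mating type a, had 21.4 to 39.2 CPM against 29.2 to 34.1 CPM. The receptor genes *pre-1* (4.76 to 8.63 CPM against 6.97 to 8.01 CPM) and *pre-2* (3.69 to 4.53 CPM against 4.77 to 5.24 CPM) were low. Only *pre-2* had libraries that did not overlap, as did 15.7% of all genes tested.

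Among 13 genes of sexual development 0 were called, where DESeq2 called 0.926% of all genes. Libraries did not overlap in 3 of them, against 15.7% of all genes tested. *fsd-1*, which encodes a transcription factor of female sexual development, had 181, 169.9 and 111 CPM in the wild type and 296, 265 and 279 CPM in the labelled libraries (log2 0.86 ± 0.21 SE, adjusted p = 0.414 by edgeR and 0.0197 by DESeq2, below the fold threshold). *sub-1*, which encodes a transcription factor needed for protoperithecia at the agar surface, had 65.6, 67.6 and 81.8 CPM against 36.4, 36.8 and 40.3 CPM (log2 -0.92 ± 0.13 SE, adjusted p = 0.256 by edgeR and 3.81e-05 by DESeq2, below the fold threshold). The most abundant genes of the list, *poi-2* and *app*, varied with the library more than with the strain. *poi-2* had 1559, 6563 and 255 CPM against 2112, 4237 and 5265 CPM. The median of the list was 0.20, and 0.05 without wild-type library 3.

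Conidiation genes, 13 in number, gave 0 calls, against the same 0.926% by DESeq2, and 1 without overlap, against the same 15.7%. *con-10* had 160.3, 217 and 129.5 CPM in the wild type and 84.8, 111 and 86 CPM in the labelled libraries (log2 -0.84 ± 0.22 SE, adjusted p = 0.481 by edgeR and 0.0553 by DESeq2). *con-8* had 716 to 1687 CPM against 1121 to 1487 CPM, *con-6* 17.2 to 419 CPM against 25 to 267 CPM and *bli-3* 407 to 465 CPM against 419 to 504 CPM. The list median was 0.12, and -0.08 without wild-type library 3.

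Metabolic lists held the other members called by DESeq2, which called 0.926% of all genes. Of 13 fermentation and polyol genes 1 was called, *sodh-2*, with 78.4, 108 and 90.4 CPM in the wild type and 38, 46 and 44.9 CPM in the labelled libraries (log2 -1.10 ± 0.16 SE, adjusted p = 1.61e-05 by DESeq2, 0.0424 by limma-voom and 0.256 by edgeR). The alcohol dehydrogenase gene *adh-1* had 340.2, 261 and 448 CPM against 172, 171 and 258 CPM, and *cfp*, the pyruvate decarboxylase gene, 230.1, 102 and 631 CPM against 121, 99.3 and 87 CPM. The list median was -0.64, and -0.22 without wild-type library 3. Of 7 nitrogen genes 0 were called, and 4 were lower without overlap, against 7.42% of all genes tested. The nitrate transporter gene *nit-10* had 46.6, 56.4 and 219 CPM against 27.6, 35.3 and 41.1 CPM, and the nitrite reductase gene *nit-6* 36.5, 26.9 and 127 CPM against 23.4, 19.5 and 23.7 CPM. In both, as in the nitrate reductase gene *nit-3* (7.8, 7.32 and 30.1 CPM against 6.54, 5.18 and 4.27 CPM), wild-type library 3 was well above the rest. The list median was -0.59, and -0.52 without that library. Of 11 phosphate genes 1 was called (*pho-5*, above), with a list median of 0.03, and of 9 quinate genes 1 (*qa-5*, above), with a median of -0.22. The quinate genes other than *qa-5*, among them the activator gene *qa-1F* (10 to 15.8 CPM against 11.1 to 13.6 CPM), had no call.

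**Figure D5:**
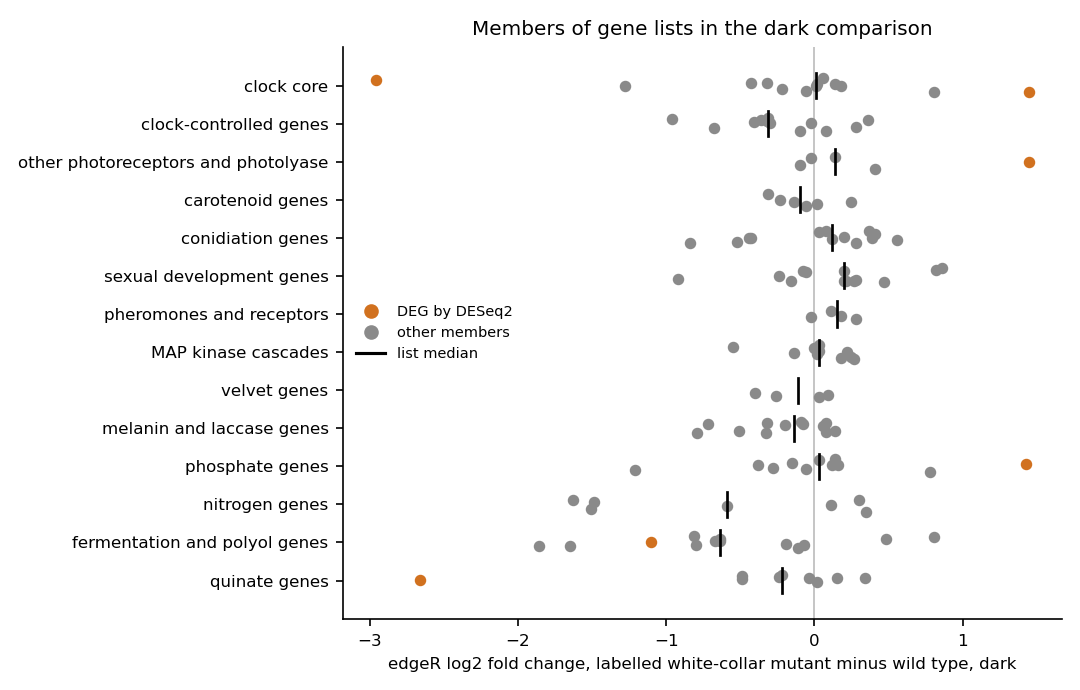
edgeR log2 fold changes of the members of 14 gene lists, labelled white-collar mutant minus wild type in the dark; each point is a gene, black ticks are list medians and orange marks DESeq2 DEGs. The list medians lie between -0.64 and 0.20, and the orange points are *frq*, *wc-1*, *phy-1*, *pho-5*, *sodh-2* and *qa-5*.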

How the data were processed

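RNA-seq read counts of 24 libraries were analysed, 6 of them in the comparison reported here. Per the submitters' processing notes and the methods, the authors checked reads with FastQC, trimmed them with fastp, aligned the pairs with STAR 2.7 to the OR74A genome and counted reads per gene with featureCounts of the Subread package in its first-strand setting. The deposited table holds these raw counts for 10561 genes without normalization. Genes that overlap on 1 strand may still share reads. Gene names came from the RefSeq table of the NC12 assembly, in which all 10561 identifiers were found and 1118 had a symbol, and otherwise from the study's gene annotations.

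Depth was 34706762 to 42697941 counts per library. Genes were filtered with filterByExpr, normalised by TMM and tested with edgeR 4.0.16 (quasi-likelihood F test, R 4.3.3) on the 6 libraries, 9103 genes in all. DESeq2 1.42.0, limma-voom (limma 3.58.1), other sample sets, RLE normalization, filters, the replicate block and leaving out each library were alternatives. The scripts were tested on simulated data. Adjusted p values are Benjamini-Hochberg over all genes tested, and a DEG needed adjusted p under 0.05 and a log2 fold change beyond 1. SE was the absolute log2 fold change over the square root of F.

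Libraries of the strains share replicate numbers. In the dark comparison the deviations from the strain means correlated at 0.186, 0.348 and 0.253 across genes for numbers 1, 2 and 3. Libraries with different numbers correlated at -0.345 to 0.199, and the highest, labelled library 2 with wild-type library 1, exceeded number 1. The numbers were taken to pair the libraries, although these values do not set number 1 apart. No label says what a shared number stands for.

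Named were *wc-1*, *wc-2*, *frq*, *vvd*, the DEGs, list members that were DEGs and, with values, the clock, clock-controlled, photoreceptor, carotenoid and pheromone lists, with up to 4 abundant examples of the others. Members, lists and tests were chosen with earlier results of these data known. The DESeq2 genes, and genes named outside this rule, were chosen after their values were seen.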

Additional observations from a re-analysis of the deposited data

Results flagged for a closer look

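These genes were picked out because the white-collar effect (labelled mutant minus wild type, log2) differed between light and dark, or between strains with and without VE-1, with an edgeR adjusted p under 0.05 for the difference itself. Values are differences of log2 fold changes, light minus dark unless stated.

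Light-induced genes had a more negative effect in light. The difference was -6.18 for *vvd* (adjusted p = 0.00516), -5.28 for *al-1* (0.0136), -2.69 for *al-2* (0.0172), -3.16 for *al-3* (0.0411) and -4.72 for *con-10* (0.0236). Their levels in the lit wild type were 781 ± 275 CPM for *vvd* and 954 ± 343 CPM for *al-1* (SD, n = 3).

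Other genes had a more positive effect in light. The difference was 2.28 for *gpd-1* (adjusted p = 0.0317) and 3.29 for NCU02486 (0.0337). It was 9.39 for NCU05126 (0.0249), 4.14 for NCU10572 (0.0177) and 4.33 for NCU16805 (0.0357), 3 genes that were lower in the dark labelled libraries than in the dark wild type and higher in the lit ones than in the lit wild type, where edgeR gave adjusted p values of 0.0508, 0.195 and 0.138. Without wild-type library 3 the dark log2 fold changes were -3.40 in place of -6.05 for NCU05126, -2.19 in place of -2.55 for NCU10572 and -1.02 in place of -2.25 for NCU16805.

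The dark effect without VE-1 minus that with VE-1 was 12.10 for NCU09968 (adjusted p = 2.77e-05) and 13.34 for NCU09969 (1.52e-05), neighbouring genes that overlap. These fitted values depend on the prior count, because the velvet mutant libraries had 0 to 2 reads of NCU09968 and 0 of NCU09969. The log2 fold change of the double against the velvet mutant in the dark was 11.28 and 11.99. That of the labelled mutant against the wild type was -0.79 and -0.99. Whether the differences come from the white-collar mutation or from the velvet mutant libraries alone was not tested. NCU09968 had 90.6, 65.7 and 42.4 CPM in the dark wild type and 40.1, 39.2 and 35.9 CPM in the dark labelled libraries, and NCU09969 had 23.3, 17.9 and 23.7 CPM against 10, 12.8 and 9.82 CPM.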

How the results depend on the processing

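The 2 dark DEGs of edgeR (1 higher, 1 lower) became 1 with all 24 libraries in the fit (0 higher), 0 with the 12 dark libraries (0 higher, 0 lower) and 0 with no filter on low counts, with 162, 295 and 749 genes at an unadjusted p under 0.05. limma-voom called 14 (4 higher, 10 lower), DESeq2 called 85 (27 higher, 58 lower) and DESeq2 on all 24 libraries 7 (0 higher, 7 lower). RLE normalization and the filter of at least 5 CPM in at least 3 libraries left 2. With each library left out the edgeR count ran from 0 to 8 (0 to 2 higher, 0 to 6 lower) and the DESeq2 count from 44 to 220 (14 to 67 higher, 29 to 153 lower). Data were simulated for these 6 libraries with 200 of 9103 genes changed by a log2 of 1.5, 2 or 3. There edgeR made 9, 7 and 7 false calls, and DESeq2 made 32, 24 and 37. Of the changed genes, edgeR recovered 68.5% to 96% and DESeq2 80.5% to 96.5%. The simulation gave each gene the same spread in both strains and held no library that stood apart. In the real dark libraries wild-type library 3 stood apart. The relative spread between libraries (biological coefficient of variation) was 0.36 in the wild type and 0.213 in the labelled mutant. The simulated shares and false calls therefore do not carry over to the real libraries. The cause of the gap between the tools in the real data was not tested. Higher *wc-1* passed the test by DESeq2 (log2 1.45), by DESeq2 with the block (1.47), by limma-voom (1.46) and by DESeq2 without each wild-type library (1.67, 1.40 and 1.31) and each labelled library (1.34, 1.5 and 1.52). It did not pass by edgeR on the 6 libraries, on 12 or on 24 (adjusted p = 0.256, 1 and 1), by edgeR with the block (0.285) or without each library (0.107 to 0.926), or by DESeq2 on all 24 libraries (1). Over 34 results, 0 of 747 alternative values were reversed. Counts of genes are among these results and cannot reverse, and they moved as given above.

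With the replicate number as a block, which pairs the dark libraries, edgeR called 0 dark DEGs (0 higher, 0 lower) and DESeq2 105, and the genes whose effect differed between light and dark numbered 48 in place of 192. DESeq2 gave 702 for that count, and leaving out each library 5 to 1220. In light and in the double mutant against the velvet mutant same-numbered libraries did not all deviate together, and the block moved edgeR's counts from 138 to 53 and from 2 to 1.

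Of the dark DEGs, 1 was also a DEG in light with all 24 libraries, 10 by DESeq2 and 0 to 2 without each library. In the double mutant against the velvet mutant these were 4 by DESeq2 and 0 to 1. DESeq2 called 8.03% of all genes in light and 0.238% in the double mutant against the velvet mutant. The genes whose dark effect differed with VE-1 numbered 6 by DESeq2 and 2 to 12 without each library, the latter without library 2 of the dark double mutant.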

Other observations

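Of 10 genes of the MAP kinase cascades 0 were called by either tool, with log2 fold changes from -0.55 to 0.27. Of all genes tested, edgeR called 0.022% and DESeq2 0.926%, so 0 calls in a list this short say little about its members. Libraries did not overlap in 15.7% of all genes tested. *mak-2*, the pheromone response kinase gene, had 534, 545 and 564 CPM in the wild type and 720.1, 569 and 693 CPM in the libraries labelled white-collar mutant, without overlap (log2 0.27 ± 0.15 SE). *mak-1*, the cell wall integrity kinase gene, had 207 to 233 CPM against 201 to 249 CPM. *os-2*, the osmotic stress kinase gene, had 286 to 518 CPM against 358 to 430.4 CPM. Of 4 velvet genes 0 were called, and *ve-1* had 220.1 to 291 CPM against 253 to 279 CPM. *lae-1* was slightly lower without overlap, with 20.8 to 25.5 CPM against 16.1 to 18 CPM (log2 -0.40 ± 0.14 SE, adjusted p = 0.596 by edgeR).

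Of 12 melanin, tyrosinase and laccase genes 0 were called by either tool. The shares over all genes tested, here and for the next lists, were 0.022% by edgeR and 0.926% by DESeq2. The laccase gene *lacc-8* had 108, 185 and 17.3 CPM in the wild type and 67.8, 100.2 and 161 CPM in the labelled libraries. The 74 cytosolic ribosomal protein genes gave 0 calls, with a median log2 fold change of -0.22, or -0.03 without wild-type library 3, and a summed level of 44339.5 to 86221 CPM in the wild type against 50849 to 55832 CPM in the labelled libraries. Of 176 loci that RefSeq lists as non-coding RNA 146 were tested, and 1, NCU14125, was a DESeq2 DEG, with 3.48, 4.05 and 1.87 CPM against 7.11, 9.07 and 8.37 CPM (adjusted p = 0.00648 by DESeq2 and 0.414 by edgeR).

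The 2 edgeR DEGs were also read in the lit strains without VE-1. There the double mutant had 51 ± 33.5 CPM of *fld*, against 120.2 ± 41 CPM in the velvet mutant, and 26.2 ± 9.13 CPM of *dpp-9* against 10.5 ± 9.35 CPM (SD, n = 3), and the groups overlapped in both genes.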
